A study of Sus scrofa with 32 samples.

Results

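MAOB, KHK, ALDH1L2, PEX11G and CHPT1 are 5 of the 25322 gene IDs in the deposited table, and each encodes a protein of amine, fructose, one-carbon, peroxisome or phospholipid metabolism. They were chosen by their breed difference, because the study's own text names them among the genes that differed between its breeds: MAOB, KHK and ALDH1L2 in one muscle, CHPT1 in the other and PEX11G with no muscle stated. Their breed difference in the muscle that chose them is therefore given only as a description, and the tests were kept for the difference between the muscles of a pig and for the breed difference in the other muscle. PEX11G, which is absent from the study's list of LD genes, was tested between the breeds in neither muscle. All 5 passed the filter on low counts, as did 11563 genes in all for the comparison of the muscles.

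Total RNA was sequenced from the longissimus dorsi (LD), the long muscle of the loin, and the semimembranosus (S), a muscle of the ham, of 16 pigs. The 8 Pulawska (PUL) and 8 Polish Landrace (PL) animals were females, unrelated and from different farms, reared at a single station with the same housing and feed and fasted before slaughter. All are labelled as 180 days old, but the study slaughtered them at a set body weight, so that age may have differed between the breeds. Each pig gave 1 library from each muscle, which made 4 groups of 8 libraries (PUL LD, PUL S, PL LD and PL S) and no treatment was applied. The labels also give PUL samples a high shear force, which goes against the study's text, where PUL meat is the more tender, so shear force was not used here.

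The 32 libraries held between 8821273 and 24761853 expected counts. ACTA1, NEB, DES and TCAP, markers of skeletal muscle, were measured in the libraries of both muscles. The albumin gene ALB, a marker of hepatocytes, was found at 7.70 to 906 CPM (counts-per-million) in both libraries of 5 PUL pigs (numbers 1 to 5), against 0 to 0.392 CPM in the other 3 PUL pigs and 0 to 4.21 CPM in PL pigs, and results that moved with this signal are given with and without those pigs. A muscle sample is a mixture of cells, so fewer cells of a type and less RNA per cell cannot be told apart in any value here.

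The 5 proteins act at separate points of metabolism. In the table the genes are listed as ENSSSCG00000023215 (MAOB), ENSSSCG00000008556 (KHK), ENSSSCG00000000839 (ALDH1L2), ENSSSCG00000013569 (PEX11G) and ENSSSCG00000000864 (CHPT1). MAOB, monoamine oxidase B, sits on the outer mitochondrial membrane, where it oxidizes phenylethylamine, dopamine and other amines to aldehydes and releases hydrogen peroxide. KHK, ketohexokinase, phosphorylates fructose and so commits it to breakdown, chiefly in liver, kidney and intestine, while muscle holds mostly the less active isoform. ALDH1L2 is the mitochondrial 10-formyltetrahydrofolate dehydrogenase, which releases a folate-bound one-carbon unit as carbon dioxide with the formation of NADPH. PEX11G belongs to the PEX11 family of membrane proteins, which elongate peroxisomes before they divide. CHPT1, choline phosphotransferase, performs the last step of phosphatidylcholine synthesis by the CDP-choline route, a phospholipid that makes up much of the membrane of the sarcoplasmic reticulum.

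The amine oxidase gene MAOB had the largest average difference between the muscles among the 5 members, a difference that stayed just short of the threshold. It was higher in S than in LD in 14 of 16 pigs, 7 of 8 in each breed, by 1.81-fold on average. In PUL, MAOB ranged from 6.14 CPM through a median of 13.6 to 21.5 CPM in LD, and from 14.3 through 26.5 to 42.0 CPM in S. In PL it ranged from 5.37 through 7.51 to 12.4 CPM in LD, and from 9.09 through 12.5 to 20.8 CPM in S. The LD and S ranges therefore overlapped within each breed.

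The S over LD ratio of MAOB ran from 0.731 to 5.20 over the 16 pigs, with a median of 1.81. The ratio was highest in PUL pig 4, whose LD library had the lowest PUL value (6.14 CPM) beside 31.9 CPM in S. The pair that came next was PL pig 10, with 5.37 CPM in LD and 20.8 CPM in S. The pigs with more MAOB in LD were PUL pig 13, with 17.96 CPM in LD and 14.3 CPM in S, and PL pig 12, with 12.4 and 9.09 CPM.

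**Figure D1:**
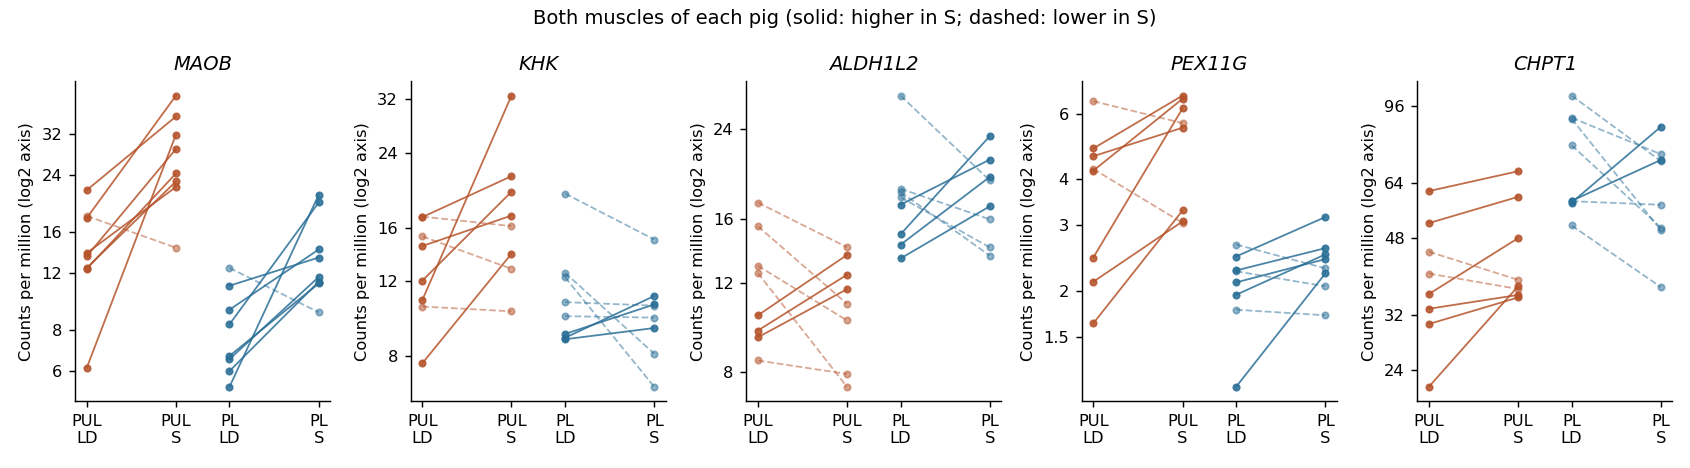
Expression of the 5 genes in both muscles of each pig, in CPM on a log2 axis, with 1 line per pig (8 PUL pigs in brown and 8 PL pigs in blue), solid where the pig had more in S and dashed where it had less. MAOB rises along 14 of 16 lines, PEX11G along 11, KHK and CHPT1 along 8 and ALDH1L2 along 7.

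Across all genes, 11 of 11563 (0.0951%) passed an adjusted p of 0.05 for S over LD in edgeR's quasi-likelihood test with the pig as a block, 6 of them higher in S (0.0519%) and 5 lower in S (0.0432%), and none of the 5 members was among them. At an unadjusted p under 0.05 there were 670 genes. MAOB was close to the threshold, with a log2 fold change of 0.86 (SE 0.17, 95% interval 0.53 to 1.19), a p of 7.85e-05 and an adjusted p of 0.0699 (edgeR quasi-likelihood, Benjamini-Hochberg), the 13th smallest p of all genes. The call depended on the fit: the adjusted p was 0.000388 with DESeq2 and 0.0111 in edgeR without the replicate block, and in edgeR it fell to 0.0205 without PUL pig 13, 0.0368 without PL pig 12 and 0.0214 without PL pig 14. With the 5 PUL pigs that carried ALB left out, 3 PUL pigs remained and 0 genes were called. MAOB was then 0.70 higher in S (SE 0.23), with an unadjusted p of 0.00923 and an adjusted p of 0.929 (edgeR quasi-likelihood). With all pigs kept and the mean of a list of hepatocyte genes as a covariate, MAOB was 0.86 higher in S (adjusted p = 0.0838, edgeR quasi-likelihood).

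In the separate breeds MAOB was 0.96 (SE 0.24) higher in S in PUL and 0.76 (SE 0.24) in PL, and these values differed by -0.19 (SE 0.34), given as a description. Genes of mitochondrial energy metabolism lay on the same side: all 15 genes of that list with an ID were on the positive side of S over LD, 2 of them at an unadjusted p under 0.05 and none after adjustment, with a median log2 difference of 0.20 against -0.01 over all genes. With the mean of that list as a covariate, MAOB was 0.74 higher in S (adjusted p = 0.0368, edgeR quasi-likelihood), an alternative chosen after the data were seen.

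PEX11G, the peroxisome division gene, rested on 15 to 131 counts per library, the lowest counts of the 5 genes. Its LD values ran from 1.63 through a median of 4.24 to 6.50 CPM in PUL and from 1.10 through 2.18 to 2.66 CPM in PL. Its S values ran from 3.05 through 5.59 to 6.73 CPM in PUL and from 1.71 through 2.36 to 3.16 CPM in PL. PEX11G was higher in S in 11 of 16 pigs, 6 PUL and 5 PL. The average log2 difference of 0.32 (SE 0.14, 95% interval 0.05 to 0.60) had an unadjusted p of 0.0330 and did not pass the adjustment over all genes (adjusted p = 0.788, edgeR quasi-likelihood).

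KHK, CHPT1 and ALDH1L2 showed no muscle difference that passed the test. KHK, the fructose kinase, differed by 0.13 on the log2 scale (SE 0.13, 95% interval -0.13 to 0.39, adjusted p = 0.972, edgeR quasi-likelihood) and was higher in S in 8 of 16 pigs. ALDH1L2 differed by -0.04 (SE 0.11, 95% interval -0.27 to 0.18, adjusted p = 0.988) and was higher in S in 7 of 16 pigs. CHPT1 differed by -0.02 (SE 0.11, 95% interval -0.23 to 0.18, adjusted p = 0.992) and was higher in S in 8 of 16 pigs. These intervals still hold differences of up to 0.39 for KHK and 0.27 in size for ALDH1L2 on the log2 scale, so that small differences between the muscles were not detectable with 16 pigs.

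For KHK and CHPT1 the average was made of opposite signs in the breeds. KHK had a log2 difference of 0.41 (SE 0.19) in PUL, with 5 of 8 pigs higher in S, and of -0.16 (SE 0.19) in PL, with 5 of 8 pigs lower in S. CHPT1 had 0.19 (SE 0.15) in PUL, with 6 of 8 pigs higher in S, and -0.24 (SE 0.15) in PL, with 6 of 8 pigs lower in S. Because the breed difference in a single muscle chose both genes, the difference between the breeds in these values, -0.57 (SE 0.26) for KHK and -0.43 (SE 0.21) for CHPT1, is given with no test.

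**Figure D2:**
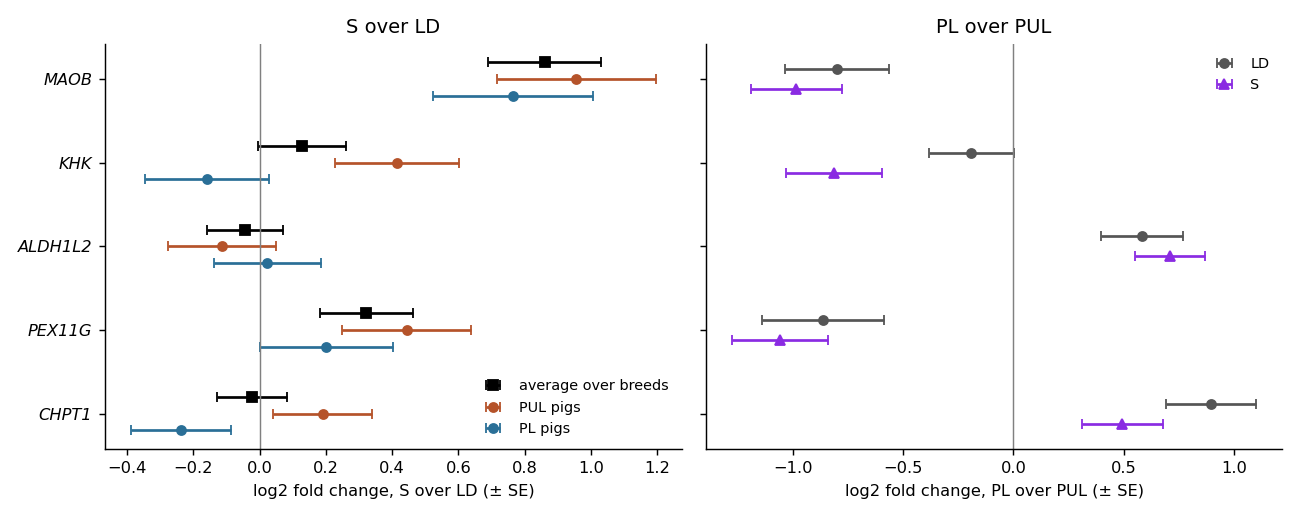
Log2 fold changes with their standard errors for S over LD (left; the average over breeds in black, PUL pigs in brown, PL pigs in blue) and for PL over PUL (right; LD as circles, S as triangles). MAOB lies farthest to the right for S over LD, at 0.86, and KHK, at -0.19 in LD and -0.81 in S, shows the widest gap between the muscles for PL over PUL.

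The breeds were then set side by side in each muscle, as PL over PUL. No gene passed an adjusted p of 0.05 with a fold change of 1.3 or more in edgeR's quasi-likelihood test, with 0 of 10792 LD genes (0%) and 0 of 10687 S genes (0%), while 772 genes in LD and 1252 in S had an unadjusted p under 0.05. Other tests of the same counts called more: the count was 19 genes for LD and 103 for S by DESeq2, and 13 and 56 by edgeR's exact test.

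MAOB lay higher in PUL in both muscles. In S, the muscle that chose it, PUL had a mean of 27.8 ± 8.79 CPM and PL a mean of 13.9 ± 4.23 CPM (SD, 8 pigs each), which gave -0.98 (SE 0.21) on the log2 scale, and 7 of 8 PUL libraries lay above every PL library. In LD, which did not choose it, the means were 14.4 ± 4.65 CPM in PUL and 8.20 ± 2.53 CPM in PL, with 5 of 8 PUL libraries above every PL library. The LD difference of -0.80 (SE 0.23) had an unadjusted p of 0.00309 but did not pass the adjustment (adjusted p = 0.513 by edgeR's quasi-likelihood test, 0.188 by DESeq2). The LD libraries came from the same pigs as the S libraries, so this is not evidence from other animals.

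PEX11G likewise lay higher in PUL. The LD means were 3.83 ± 1.64 CPM for PUL and 2.07 ± 0.483 CPM for PL (SD, 8 pigs each), and in S they were 5.02 ± 1.61 and 2.37 ± 0.424 CPM. The log2 fold changes were -0.86 (SE 0.28) in LD and -1.06 (SE 0.22) in S. The study's text gives PEX11G no muscle, so both muscles were treated as having chosen it and neither difference was tested here. Its absence from the study's list of LD genes points to S, but the text does not state this. The SD between pigs on the log2 scale was 0.59 in LD and 0.46 in S among PUL, against 0.31 and 0.21 among PL. In S, 5 PUL libraries lay between 5.51 and 6.73 CPM and the other 3 between 3.05 and 3.29 CPM, next to the highest PL library at 3.16 CPM.

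KHK was on the PUL side in S, with LD groups that largely overlapped. Its S values, which chose it, ran from 10.19 through a median of 16.6 to 32.7 CPM in PUL and from 6.78 through 10.18 to 15.0 CPM in PL, with a log2 fold change of -0.81 (SE 0.22). In LD they ran from 7.69 through 13.3 to 16.995 CPM in PUL and from 8.76 through 10.3 to 19.2 CPM in PL. The log2 fold change of -0.19 (SE 0.19) was within the spread between pigs (unadjusted p = 0.338, adjusted p = 0.892, edgeR quasi-likelihood).

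The mean of KHK in S was higher in the pigs with ALB, with overlapping values. The 5 PUL pigs with ALB had a mean of 19.99 CPM in S (12.8 to 32.7), the 3 other PUL pigs 14.5 CPM (10.19 to 17.1) and PL pigs 10.15 CPM. The highest KHK value, 32.7 CPM, was the S library of PUL pig 1, beside 10.8 CPM in its LD, while PUL pigs 2 and 4, also with ALB, had 12.8 and 13.9 CPM in S, below PUL pigs 13 and 17 without it (16.1 and 17.1 CPM). In LD the PUL pigs with ALB had a mean of 12.6 CPM and the others 13.98 CPM. Over all 32 libraries, with group means taken out, KHK had an r of 0.18 with the hepatocyte list. Of 29 hepatocyte genes 26 had an ID, and their summed level ranged from 35.2 to 1724 CPM in PUL S and from 20.4 to 68.0 CPM in PL S, where APOB, TAT and HPD were at 0 in all libraries. Without the 5 pigs the log2 fold change of KHK was -0.50, and with the mean of the hepatocyte list as a covariate it was -0.59. Without these pigs the average S over LD difference turned from 0.13 to -0.06.

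ALDH1L2, the mitochondrial folate enzyme, lay higher in PL in both muscles. In S, which chose it, the values ran from 7.49 through a median of 11.3 to 14.1 CPM in PUL and from 13.6 through 17.998 to 23.3 CPM in PL, a log2 fold change of 0.71 (SE 0.16), and 6 of 8 PL libraries lay above every PUL library. In LD they ran from 8.44 through 11.4 to 17.2 CPM in PUL and from 13.4 through 17.4 to 28.0 CPM in PL. The LD difference of 0.58 (SE 0.19), with all 8 PL libraries above the PUL median, had an unadjusted p of 0.00577 and did not pass the adjustment (adjusted p = 0.520 by edgeR's quasi-likelihood test, 0.209 by DESeq2).

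CHPT1, the phosphatidylcholine enzyme, lay higher in PL in both muscles. Its LD values, which chose it, ran from 22.0 through a median of 37.8 to 61.4 CPM in PUL and from 51.3 through 68.2 to 101 CPM in PL, a log2 fold change of 0.90 (SE 0.21) with 6 of 8 PUL libraries below every PL library. In S they ran from 35.1 through 37.9 to 68.1 CPM in PUL and from 37.1 through 64.5 to 86.0 CPM in PL. The S difference of 0.49 (SE 0.18) had an unadjusted p of 0.0153 and did not pass the adjustment (adjusted p = 0.336 by edgeR's quasi-likelihood test, 0.249 by DESeq2).

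**Figure D3:**
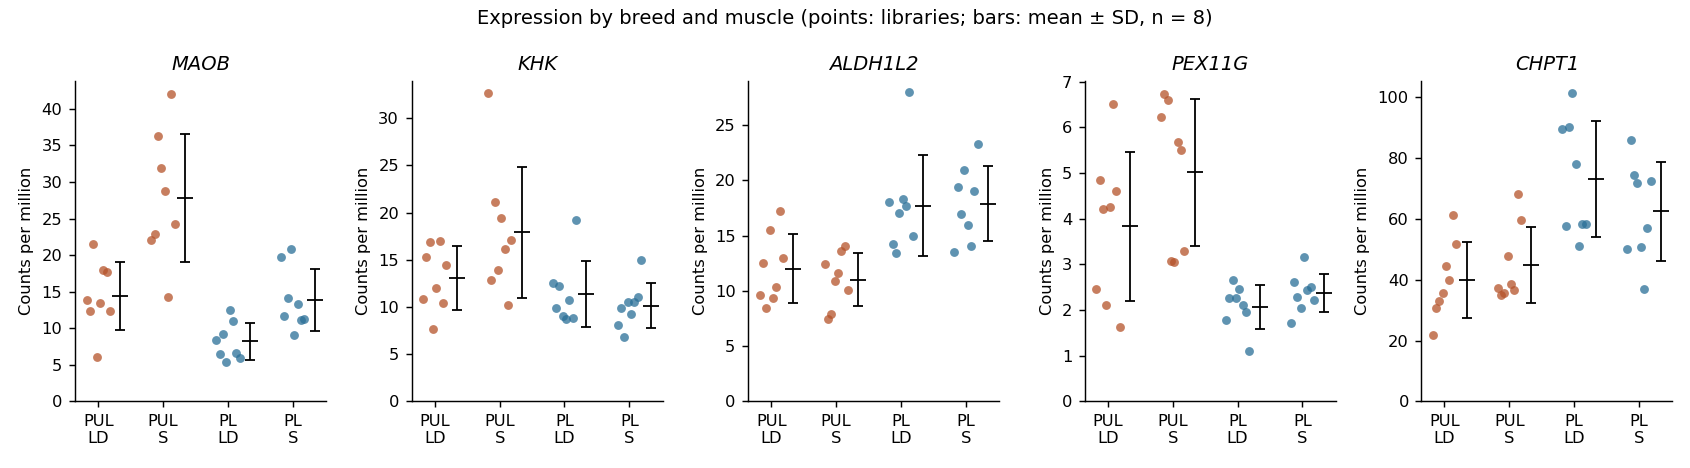
Expression of the 5 genes in CPM in the 4 groups, with 1 point per library and the mean ± SD beside it (n = 8 each). MAOB, KHK and PEX11G lie higher in PUL S than in PL S, ALDH1L2 and CHPT1 lie higher in PL, and the breeds overlap in each panel and muscle.

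The mean of CHPT1 was lower in the PUL pigs with ALB in both muscles, with overlapping values. In LD the 5 PUL pigs with ALB had a mean of 33.2 CPM (22.0 to 44.7), the other 3 had 51.0 CPM (39.8 to 61.4) and PL pigs had 73.1 CPM. In S the corresponding means were 38.9 CPM (35.1 to 47.95), 54.8 CPM (36.7 to 68.1) and 62.5 CPM. Without those 5 pigs the log2 fold change of PL over PUL was 0.53 in LD and 0.21 in S (adjusted p = 0.721, edgeR quasi-likelihood), and with the hepatocyte covariate it was 0.64 and 0.37. For MAOB, PEX11G and ALDH1L2 the values without these pigs were -0.96, -1.03 and 0.40 in LD and -0.93, -0.999 and 0.52 in S. Of the LD values, MAOB (SE 0.27) had an unadjusted p of 0.00382 and ALDH1L2 (SE 0.25) of 0.143. Both had an adjusted p of 0.962 (edgeR quasi-likelihood).

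**Figure D4:**
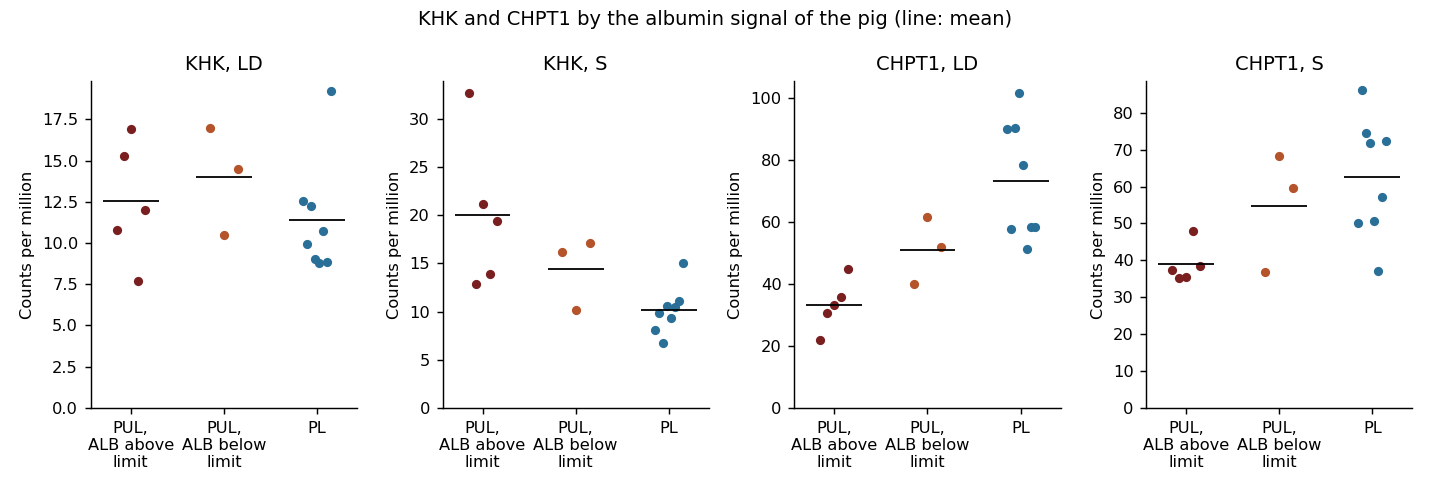
KHK and CHPT1 in CPM in the PUL pigs whose ALB exceeded 5 CPM (n = 5), the other PUL pigs (n = 3) and the PL pigs (n = 8), with a line at each mean. In S, mean KHK falls from 19.99 through 14.5 to 10.15 CPM and in LD mean CHPT1 climbs from 33.2 through 51.0 to 73.1 CPM across the 3 sets.

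Connective tissue genes lay on the PL side, but none passed the test. Of 12 fibroblast and matrix genes 10 had an ID and 9 were tested, and all 9 were on the PL side in both muscles. The medians were 1.297 in LD and 1.09 in S on the log2 scale (0.01 and 0.02 over all genes). At an unadjusted p under 0.05 (edgeR quasi-likelihood) there were 7 in LD and 5 in S. The share of all genes at that p on the PL side was 3.64% in LD and 5.38% in S. By edgeR's quasi-likelihood test and by DESeq2, 0 of the 9 passed the adjustment in either muscle, and without the 5 ALB pigs 0 had an unadjusted p under 0.05. Their summed level ranged from 282 to 2567 CPM in PUL LD and from 599 to 5995 CPM in PL LD. In S it ranged from 128 to 2372 CPM in PUL and from 1207 to 5643 CPM in PL, and none of the 10 genes was at 0 in all libraries of a group. With the mean of this list as a covariate, ALDH1L2 was 0.42 higher in PL in LD and 0.46 in S, and CHPT1 0.79 in LD and 0.28 in S, alternatives chosen after the data were seen. MAOB stayed at -0.70 and -0.86 in the same fits.

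Whether a pig with a high level in LD also had a high level in S was tested within each breed. Within each breed, Pearson's r between the LD and S levels of the 8 pigs, on log2(CPM + 0.5), ran from -0.35 for MAOB in PL to 0.76 for CHPT1 in PUL, and none of the 10 relations passed an exact two-sided permutation test after adjustment. CHPT1 in PUL had an exact permutation p of 0.0282 (adjusted p = 0.282), Spearman's rho was 0.76 (exact permutation p = 0.0368, adjusted p = 0.368), and r was 0.69 without the 2 pigs farthest from the LD median. PUL pigs 16 and 17 had the highest CHPT1 values in both muscles, 61.4 and 51.9 CPM in LD and 68.1 and 59.6 CPM in S, and neither carried the ALB signal.

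The genes whose variation between libraries was most like that of each member were ranked among 7900 genes with a symbol, by Pearson's r over the 32 libraries after the mean of each of the 4 groups was taken out. These are descriptions, since each pig gave 2 of the libraries and the most alike of so many genes will have a high r. For MAOB they were PDHA1, the E1 subunit of pyruvate dehydrogenase (r = 0.61), IMMT, a protein of the mitochondrial inner membrane (0.61), and NDUFS1, a subunit of respiratory complex I (0.58). For KHK they were CRYL1, a dehydrogenase of the glucuronate pathway (0.73), DDC, the amine-forming aromatic amino acid decarboxylase (0.68), and USF1, a transcription factor (0.68).

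ALDH1L2 was most like UHRF1, a factor of DNA methylation maintenance (r = 0.70), PSAT1, an enzyme of serine synthesis (0.68), and MAN2A1, a mannosidase of the Golgi (0.66). Its r with PSAT1 was 0.86 over the LD libraries and 0.40 over the S libraries. PEX11G was most like BTC, which encodes the growth factor betacellulin (0.67), MRPL18, a mitochondrial ribosomal protein (0.64), and POLR2M (0.62). CHPT1 was most like MYL1, the myosin light chain of fast fibres (0.77), GLO1, glyoxalase I (0.71), and MORF4L1, a chromatin protein (0.70).

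Read against the marker lists in the same way, MAOB and ALDH1L2 had r of opposite sign with mitochondrial genes. The r with the mean of the mitochondrial list, which holds NDUFS1, was 0.58 for MAOB and -0.53 for ALDH1L2, although the proteins of both genes are mitochondrial. ALDH1L2 had an r of 0.53 with the fibroblast and matrix list. CHPT1 had an r of 0.46 with the fast fibre list, which holds MYL1, and -0.47 with the slow fibre list. Among themselves the members were not closely related, with r from -0.22 for MAOB and ALDH1L2 to 0.37 for ALDH1L2 and CHPT1.

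**Figure D5:**
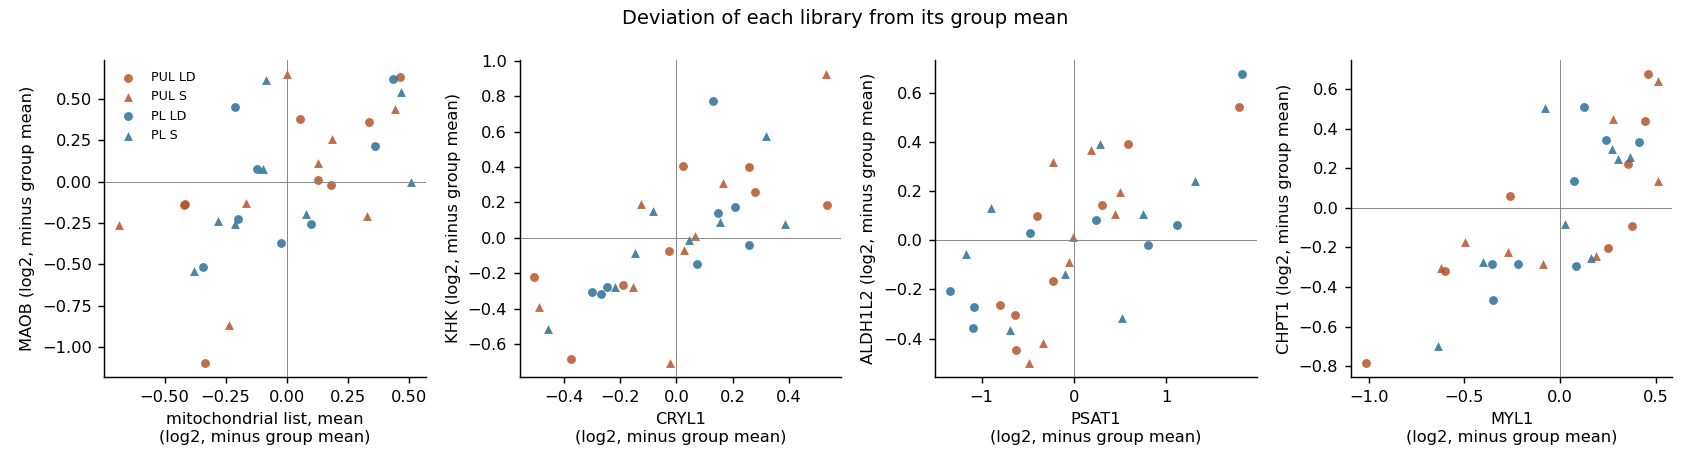
Deviation of each of the 32 libraries from its group mean, on the log2 scale, for MAOB against the mean of the mitochondrial list, KHK against CRYL1, ALDH1L2 against PSAT1 and CHPT1 against MYL1 (brown PUL, blue PL; circles LD, triangles S). The points climb from lower left to upper right in each panel, with r of 0.58, 0.73, 0.68 and 0.77.

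In the amine list, 16 of 27 genes were tested and 0 passed in S over LD by edgeR's quasi-likelihood test or by DESeq2, 1 having an unadjusted p under 0.05, and the median log2 difference was 0.06 (-0.01 over all genes). ALDH2, which oxidizes the aldehydes that amine oxidases form, differed by 0.08 (SE 0.15). Its means in PUL were 435 ± 135 CPM in S and 398 ± 178 CPM in LD (SD, 8 pigs each). By breed in S it differed by -0.22 (SE 0.19), with an adjusted p of 0.636 (edgeR quasi-likelihood).

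In the fructose and polyol list, 23 of 31 genes were tested and again 0 passed in S over LD by either tool, 1 at an unadjusted p under 0.05, with a median of 0.06. TKFC, a kinase of fructose breakdown downstream of KHK, differed by 0.05 (SE 0.11), and SORD, which makes fructose from sorbitol, by 0.22 (SE 0.15). By breed in S, both were on the PUL side as KHK was, TKFC at -0.54 (SE 0.22, adjusted p = 0.375, edgeR quasi-likelihood) and SORD at -0.70 (SE 0.33, adjusted p = 0.423). In LD they were at -0.20 (SE 0.17) and -0.15 (SE 0.18). Without the 5 ALB pigs the S values were -0.16 (SE 0.24) for TKFC and 0.11 (SE 0.21) for SORD, whose sign turned. Between the breeds in S, 4 of 22 genes of this list had an unadjusted p under 0.05 on the PUL side (edgeR quasi-likelihood). The share of all genes on that side was 6.33%, and 1 list gene was on the PL side. Without the ALB pigs the counts were 1 of 22 on the PUL side and 0 on the PL side.

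Of 41 folate and one-carbon genes 25 were tested, 0 passed in S over LD by either tool, 1 had an unadjusted p under 0.05 and the median was -0.09, with 6 of 25 on the positive side. ALDH1L1, the cytosolic counterpart of ALDH1L2, differed by 0.02 (SE 0.45) between the muscles and by -1.003 (SE 0.59, adjusted p = 0.503, edgeR quasi-likelihood) between the breeds in S, on the PUL side, where ALDH1L2 was on the PL side. Without the 5 ALB pigs ALDH1L1 was at -0.74 (SE 0.74) in S and at 0.35 (SE 0.52) in LD, against -0.56 (SE 0.40) with them. MTHFD1L and MTHFD2, mitochondrial enzymes of the same folate cycle, differed by 0.16 (SE 0.30) and -0.33 (SE 0.27) between the muscles. MTHFD1L was at 0.69 (SE 0.33, adjusted p = 0.423) towards PL in S and at 0.15 (SE 0.27) without those pigs, and MTHFD2, at means of 0.306 to 0.640 CPM, was filtered out there.

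Peroxisomal genes gave no call between the muscles either. In the list of biogenesis and division genes 12 of 19 were tested, 0 passed by either tool, 1 had an unadjusted p under 0.05 and the median was -0.003 (about no difference). PEX11A, the family member beside PEX11G, had means of 5.75 to 6.25 CPM in the 4 groups and differed by 0.06 (SE 0.12) between the muscles and by 0.05 (SE 0.18) in LD and 0.04 (SE 0.23) in S between the breeds. Of 30 peroxisomal enzymes and transporters 20 were tested, 0 passed by either tool, 1 had an unadjusted p under 0.05 and the median was 0.03. Between the breeds in S, 0 peroxisomal genes passed by edgeR's quasi-likelihood test or DESeq2, but on the PUL side, where PEX11G lay, 6 of 18 enzymes and transporters and 3 of 12 biogenesis and division genes had an unadjusted p under 0.05, against 6.33% of all genes. Without the 5 ALB pigs these counts were 3 of 18 and 2 of 12, and the share over all genes was not computed for that fit. On the PL side in S, with all pigs, there was 1 gene in each list. In LD, with all pigs, the PUL side had 2 of 18 and 1 of 12, against 3.51% of all genes, and the PL side had 0 in each list.

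In the list of phosphatidylcholine and phosphatidylethanolamine synthesis, 23 of 40 genes were tested, 0 passed by either tool, 2 had an unadjusted p under 0.05 and the median was 0.004. CEPT1, which catalyses the same step as CHPT1, differed by -0.19 (SE 0.18) between the muscles and by 0.05 (SE 0.20) in LD and 0.27 (SE 0.26) in S between the breeds. PCYT1A, the rate-limiting enzyme of the CDP-choline route, differed by 0.004 (SE 0.09) between the muscles and -0.16 (SE 0.13) in LD between the breeds, and CHKA, a choline kinase, by -0.27 (SE 0.20) and -0.44 (SE 0.28). None of these differences passed the adjustment (edgeR quasi-likelihood), and in LD, where CHPT1 lay 0.90 towards PL, CEPT1 lay at 0.05 and both other genes on the PUL side.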

How the data were processed

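Ribosomal RNA was depleted and libraries were sequenced as single reads with a kit that does not mark strand, so that reads of overlapping genes on opposite strands cannot be told apart. The authors aligned the reads to Sscrofa10.2 with Bowtie2 and estimated expression with RSEM, after base calling with CASAVA 1.8.2, per the labels and the study's methods. The deposited values are expected counts per gene, not normalized, in which reads with several possible origins are shared among genes. A table of isoforms was not used, because its IDs are not paired with genes. No genome of this build was used, so no coordinates are given.

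A gene name table gave a symbol to 11804 of 25322 gene IDs. The fixed partners MAOA, AOC3, AKR1B1, SLC2A5, SHMT2, CHKB and PEMT were not analysed here, and some other partners are not reported here. Of 340 entries of the gene lists 241 had an ID. No member is in the lists. The members and lists were chosen with earlier results of these data known.

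Expected counts were rounded and tested in R 4.3.3 with edgeR 4.0.16 (filterByExpr, TMM factors, glmQLFit, glmQLFTest), limma 3.58.1 and DESeq2 1.42.0, with Benjamini-Hochberg adjustment over all genes tested. S over LD was fitted to the 32 libraries, blocked by pig, with an S term for each breed, averaged over breeds; breeds were compared within each muscle, called at an adjusted p of 0.05 or less and a fold change of 1.3 or more. CPM were scaled by TMM factors and logs taken of CPM + 0.5. Intervals are 1.96 SE to each side. Besides the 5 genes, fixed partners and the 3 genes most alike to each member are named, and list genes were to be named if called in S over LD. Alternatives were other size factors, filters, tests and covariates, a block, left-out pigs and other pseudocounts; values of list genes and partners without the ALB pigs were added after the data were seen. The scripts were tested on simulated data.

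The pairing comes from the labels, which give the same number to the LD and S samples of a pig. The deviations from the group means of a pig's libraries correlated across genes at -0.52 to 0.69 (median 0.20). In 4 of 16 pigs the own pair correlated best among the S libraries of the breed: PUL pigs 3, 13 and 16 and PL pig 18. In the other PL pigs r ran from -0.52 to 0.24. The values therefore give little evidence on the pairing, least in PL, and the pairing rests on the labels. The breed p-values are set against the spread between these pigs, and the S over LD p-values against the spread of their within-pig muscle differences. The p-values for LD against S levels come from permuting the pairings. The depth of 8821273 to 24761853 counts limits PEX11G most, at 15 to 131 counts.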

Additional observations from a re-analysis of the deposited data

Results flagged for a closer look

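Of 20 sets of 8 libraries (5 genes in 4 groups), 2 held a library set far apart from the rest by Dixon's test, where chance gives about 1 in 20. KHK in PL LD was highest in pig 18, at 19.2 CPM, against a group median of 10.3 CPM, and the same pig also had the highest KHK of PL S, at 15.0 CPM. ALDH1L2 in PL LD was highest in pig 15, at 28.0 CPM, against a median of 17.4 CPM, and its S library was within the range of its group.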

How the results depend on the processing

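MAOB was higher in S in each of 26 other settings, at 0.70 to 0.96 on the log2 scale, and its adjusted p by edgeR's quasi-likelihood test or DESeq2 ran from 0.000388 to 0.929. It passed the threshold at 0.87 with DESeq2, 0.85 with no block by pig, 0.74 with the mitochondrial covariate and 0.94 with the fibroblast covariate. Leaving out 1 pig at a time gave 0.76 to 0.96, and MAOB did not pass in 13 of 16 of these fits. KHK was -0.060 without the 5 ALB pigs, ALDH1L2 was 0.044 and CHPT1 0.0075 with the mitochondrial covariate, and leaving out 1 pig gave -0.088 to 0.018 for ALDH1L2 and -0.086 to 0.021 for CHPT1, so their sign is not settled. The block by pig changed no other member's call. The 11 genes called in S over LD became 72 with DESeq2, 0 with at least 10 counts in every library, 0 without the ALB pigs, 109 with the mitochondrial covariate and 4 to 79 with 1 pig left out (79 without PL pig 14); the cause was not tested, except that fewer pigs or genes entered some fits. No pathway list gene was called in S over LD in any of 27 settings.

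The 0 genes called between the breeds in LD became 19 with DESeq2, 13 with the exact test, 6 with both muscles in a single fit, 4 with no filter, 1 without the ALB pigs and 0 to 1 with 1 pig left out. The 0 in S became 103, 56, 70, 4, 1 and 0 to 1 in the same order, 11 with the hepatocyte covariate, 1 with the mitochondrial covariate and 1 with RLE factors. The members kept the sign of their breed difference in all settings, and those tested stayed above an adjusted p of 0.15. A block of the replicate numbers shared across breeds called 0 genes in either muscle; these numbers mark different pigs, 6 of 8 pairs correlating over 0.1 in LD and 2 of 8 in S. Low counts and 8 pigs a group limit what small differences could be detected.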

Other observations

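PHGDH, PSAT1 and PSPH, the enzymes of serine synthesis that feed the folate cycle, lay on the same side as ALDH1L2 between the breeds. PHGDH and PSPH were chosen after their values were seen. In S the log2 fold changes of PL over PUL were 1.39 (SE 0.62) for PHGDH, 1.98 (SE 0.47) for PSAT1 and 0.84 (SE 0.27) for PSPH. The adjusted p were 0.400, 0.204 and 0.273 (edgeR quasi-likelihood), so that none passed by that test. In LD the log2 fold changes were 1.08 (SE 0.63), 1.61 (SE 0.71) and 0.96 (SE 0.34), with adjusted p of 0.761, 0.659 and 0.540. Without the 5 PUL pigs that carried ALB they were 0.67, 2.12 and 0.57 in S and 0.24, 0.65 and 0.29 in LD. The folate and one-carbon list, which holds these genes, had 13 of 23 genes on the PL side in S, with a median of 0.09. By DESeq2, 1 gene of that list passed between the breeds in S, and it is not identified here. PSPH in S had a mean of 8.73 ± 2.94 CPM (SD, n = 8) in PUL and 15.5 ± 7.57 CPM in PL. PSAT1 was low, at 0.454 ± 0.239 CPM in PUL S and 1.82 ± 1.37 CPM in PL S.

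DDC, whose variation was like that of KHK, lay on the PUL side with KHK, at 6.09 ± 9.57 CPM (SD, n = 8) in PUL S and 1.06 ± 1.57 CPM in PL S. Its log2 fold change in S was -2.60 (SE 0.94, adjusted p = 0.320, edgeR quasi-likelihood), and the SD of each S group was larger than its mean. Hepatocyte genes lay on the same side, with a median of -1.51 in S over the 8 tested. Without the 5 PUL pigs that carried ALB the DDC difference in S was 0.18 (SE 0.90), of the opposite sign. In LD the DDC difference was -2.07 (SE 0.62) with all pigs and -1.47 (SE 0.67) without those pigs, still on the PUL side. That LD value without the ALB pigs had an unadjusted p of 0.0482 and an adjusted p of 0.962 (edgeR quasi-likelihood).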
